A study of Danio rerio with 4 samples.

Results

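The genes described here carry lipid, retinol and other cargo inside cells or in plasma, and in the zebrafish embryo many of them are transcribed in the yolk syncytial layer, the tissue that moves yolk nutrients into the embryo. They were chosen by symbol: fabp1b.1, fabp2, rbp4, apoa1b, apoa2, apoeb, apobb.1, mttp, tfa and ttr, 10 genes in all. The choice was made with earlier results of these data known, so counts and medians set beside those of all probes are descriptions. A probe belonged to the set if the RefSeq accession printed for it on the array belongs to one of these symbols, and 10 of 43603 noncontrol probes did. They covered 7 of the 10 genes, with 3 probes for apoeb, 2 for fabp1b.1 and 1 for each of the others. No probe carried an accession of mttp, tfa or ttr (0 probes each), so these 3 were not analysed here. All 10 probes passed the filter for testing, which asked that at some age both arrays showed the probe well above background in Cy3 or in Cy5 and left 28320 probes in all.

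Yolk lipid is released from the yolk mass, taken up by the yolk syncytial layer, bound in the cytosol by fatty acid binding proteins, and packed with apolipoproteins into lipoprotein particles that are secreted to the embryo. Apolipoprotein B is the structural protein of these particles, and microsomal triglyceride transfer protein (the product of mttp) loads lipid onto it. Apolipoproteins E, A-I and A-II are exchangeable proteins of the particle surface, and retinol travels in plasma on retinol binding protein 4, which in mammals circulates in a complex with transthyretin.

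Each sample was RNA of whole zebrafish embryos from a pool of 200, kept at 28 °C, collected at 12 or 24 hours post fertilization (hpf). Morphant embryos (MO-Bad) had received 2 to 3 nl of a morpholino, an antisense oligonucleotide, against Bad at the 1-cell stage, and the labels give Bad deficiency as their treatment; Bad is a pro-apoptotic member of the Bcl-2 family. Wild-type embryos (WT) of the same age were labelled as controls, with no injection or control morpholino named. Each age had 2 biological replicates, and each replicate was 1 array with morphant RNA in Cy5 and wild-type RNA in Cy3. No swap of the dyes is named, so morpholino, injection and dye cannot be told apart within an age. In whole-embryo RNA, fewer cells of a type and less RNA per cell also cannot be told apart.

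The 4 arrays had similar shares of probes above background, but signal and dye balance differed. The median signal in Cy3 was 52 and 59 at 12 hpf and 76 and 73 at 24 hpf, over local backgrounds of 29 to 32. In Cy5 it was 92 and 88.5, then 131 and 136, over 48.5 to 49. After normexp background correction the median log2 ratio was 0.39 and 0.40 at 12 hpf and 1.06 and 0.56 at 24 hpf, before dye correction. With plain background subtraction it was 0.89 and 0.51, then 0.89 and 1.00. The share of probes well above background was 55.9% to 61.5% in the Cy3 channel and 57.9% to 64.9% in the Cy5 channel, and no spot was saturated. The labels say only Bad, and which paralogue was targeted is not shown. Only badb could be measured here, because bada had 0 probes. The 1 probe of badb was lower in the morphant on all 4 arrays, with log2 ratios from −0.20 to −0.42. Whether this reflects the knockdown was not tested. Of 38 measured markers of muscle, neural, notochord, hatching gland, blood, skin and endodermal tissue, 33 were well above background in the wild type on both arrays at 12 hpf and 36 at 24 hpf.

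Values below are log2 ratios of morphant over wild type after background correction and removal of the dye trend within each array, given for replicate 1 and then replicate 2, with SD over n = 2 arrays. The test is limma on all 28320 probes with Benjamini-Hochberg adjustment, and a probe is called where its adjusted p is under 0.05. With 2 arrays per age the number of arrays limits the precision, and p-values speak only of these arrays. Each SE and p-value uses a spread shared by both ages and moderated toward that of all probes, so it does not follow the SD of 1 age.

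At 12 hpf, during segmentation, most of the lipid and plasma carrier probes were higher in the morphant. Of the 10 probes, 7 were called higher, 1 lower and 2 not called. Among all probes 12.2% were called higher and 9.35% lower, a description only, since the set was chosen with earlier results of these data known. The 7 higher probes came from 5 genes: fabp1b.1, fabp2, rbp4, apoa2 and apoeb. The median ratio of the 10 probes was 0.25, beside 0.01 over all probes tested. The genes of intracellular fatty acid binding and of retinol transport had the highest ratios and the apolipoproteins smaller ones, but with each array centred on its median in place of the loess curve apoeb probe 1 (1.05) stood above fabp1b.1 probe 2 (1.00) and rbp4 (0.96).

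The gene fabp1b.1 encodes a fatty acid binding protein of the liver type, which binds long-chain fatty acids in the cytosol. Its brighter probe (probe 1) had spot signals of 13577 and 18514 in wild-type Cy3 and 63338 and 55369 in morphant Cy5 at 12 hpf. The log2 ratio was 0.97 and 0.69 at 12 hpf, and 0.36 and 0.45 at 24 hpf. Both 12 hpf arrays lay above both 24 hpf arrays, and all 4 lay above 0. The mean at 12 hpf was 0.83 ± 0.20, a 1.78-fold higher level (SE 0.08, limma adjusted p = 0.000181), the largest ratio of the 10 probes at that age. At 24 hpf it was 0.41 ± 0.06, or 1.32-fold (adjusted p = 0.00681), and without 24 hpf replicate 2 it no longer passed (0.36, adjusted p = 0.0701).

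The dimmer probe of fabp1b.1 (probe 2) had ratios of 0.51 and 0.40 at 12 hpf and of 0.04 and −0.04 at 24 hpf. It was called higher at 12 hpf, at 0.45 ± 0.08 (adjusted p = 0.00164), and at 24 hpf its mean was −0.00 ± 0.06 (adjusted p = 0.982). The ratio of probe 1 exceeded that of probe 2 on 4 of 4 arrays, by 0.29 to 0.49. In the GRCz12tu annotation fabp1b.1 lies beside fabp1b.2, a tandem copy, and the annotation used here does not show whether either probe also binds its transcript.

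The gene fabp2 encodes the intestinal fatty acid binding protein. Its ratio was 0.73 and 0.58 at 12 hpf and 0.16 and 0.06 at 24 hpf, and the ages did not overlap. The 12 hpf mean of 0.66 ± 0.11 was a 1.58-fold higher level in the morphant (SE 0.07, adjusted p = 0.000294). The 24 hpf mean of 0.11 ± 0.07 did not pass (adjusted p = 0.279).

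The gene rbp4 encodes the plasma carrier of retinol. Its wild-type spot signal was 783 and 1003 at 12 hpf and 20301 and 13482 at 24 hpf, so that at 12 hpf it was among the dimmer members. The ratio was 0.71 and 0.48 at 12 hpf and 0.11 and 0.33 at 24 hpf, above 0 on all 4 arrays, and both 24 hpf values lay below both 12 hpf values. The 12 hpf mean was 0.59 ± 0.16, or 1.51-fold (SE 0.08, adjusted p = 0.00120). The 24 hpf mean was 0.22 ± 0.16 (adjusted p = 0.0781). Runs without a 12 hpf array changed no 24 hpf value, so they give no further support for this mean.

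**Figure D1:**
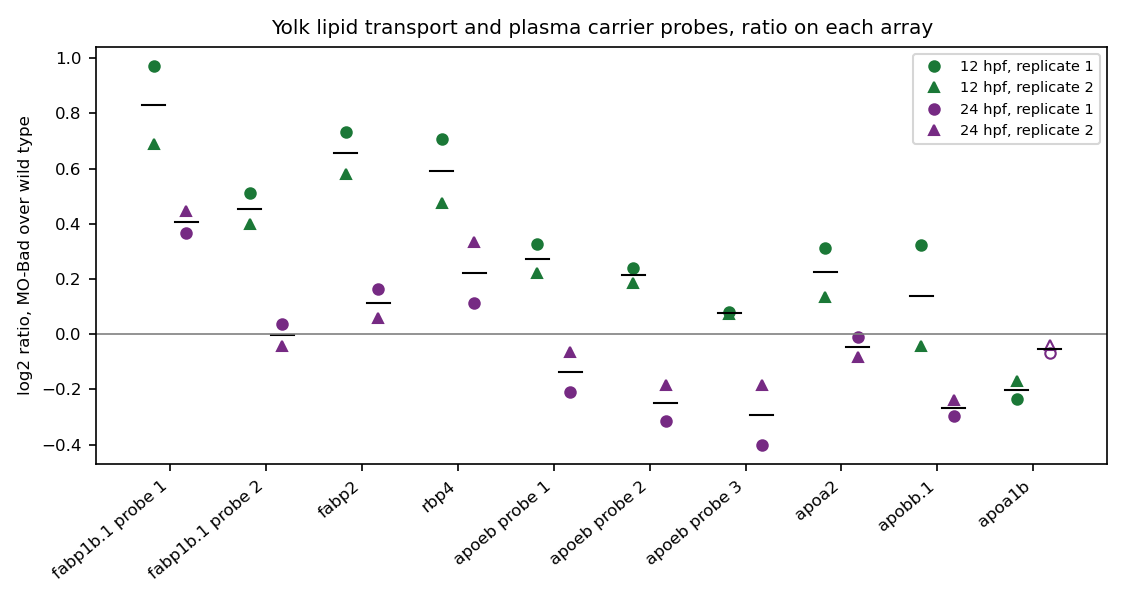
Log2 ratio of morphant over wild type (vertical axis) for each of the 10 probes (horizontal axis) on each of the 4 arrays; circles are replicate 1, triangles replicate 2, black bars the mean of an age, and open symbols a probe not well above background. For the 9 bright probes both 24 hpf points lie below both 12 hpf points, and the 12 hpf means run from 0.83 for fabp1b.1 to 0.08 for apoeb probe 3.

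The gene apoeb encodes apolipoprotein E, a ligand of lipoprotein receptors that is strongly transcribed in the yolk syncytial layer. Its 3 probes were among the brightest members, with wild-type spot signals from 16025 to 50064. Probe 1, the brightest, had ratios of 0.33 and 0.22 at 12 hpf and −0.21 and −0.06 at 24 hpf. Probe 2 had 0.24 and 0.18 at 12 hpf and −0.32 and −0.19 at 24 hpf. Probe 3 had 0.08 and 0.07, then −0.40 and −0.18. All 3 probes were above 0 on both 12 hpf arrays and below 0 on both 24 hpf arrays.

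At 12 hpf the mean was 0.27 ± 0.07 for apoeb probe 1 (adjusted p = 0.0200) and 0.21 ± 0.04 for probe 2 (adjusted p = 0.0455), both called higher. Probe 3 was not called, at 0.08 ± 0.01 (adjusted p = 0.485). Without 12 hpf replicate 1 neither probe 1 nor probe 2 passed (adjusted p = 0.199 and 0.277), and without 12 hpf replicate 2 probe 2 did not (adjusted p = 0.124). At 24 hpf the direction was the opposite: probe 2 fell by 0.25 ± 0.09 (adjusted p = 0.0255) and probe 3 fell by 0.29 ± 0.15 (adjusted p = 0.0190), while probe 1 was at −0.14 ± 0.10 (adjusted p = 0.184). Median centring turned probes 2 and 3 to 0.47 (adjusted p = 0.319) and 0.36 (adjusted p = 0.467) at 24 hpf. Without 24 hpf replicate 1 they did not pass (adjusted p = 0.271 and 0.276), and without 24 hpf replicate 2 probe 2 did not (adjusted p = 0.0678).

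The gene apoa2 encodes apolipoprotein A-II of high density lipoprotein. Its ratio was 0.31 and 0.14 at 12 hpf and −0.01 and −0.08 at 24 hpf. The 12 hpf mean of 0.22 ± 0.12 was called higher (adjusted p = 0.0450), but not without 12 hpf replicate 1 (0.14, adjusted p = 0.420). At 24 hpf the mean of −0.05 ± 0.05 did not pass (adjusted p = 0.666).

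The gene apobb.1 encodes an apolipoprotein B, the scaffold of the secreted particle. Its ratios were 0.32 and −0.04 at 12 hpf, on either side of 0, and −0.30 and −0.24 at 24 hpf. The 12 hpf mean was 0.14 ± 0.26 (adjusted p = 0.279). It was −0.04 without replicate 1 of that age and 0.32 without replicate 2, each resting on 1 array. The 24 hpf mean was −0.27 ± 0.04 (adjusted p = 0.0540). Runs without a 12 hpf array changed no 24 hpf value, and median centring gave this mean the opposite sign (0.38).

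The gene apoa1b encodes an apolipoprotein A-I, and its probe was the only dim member. Its spot signal in Cy3 was 53 and 61 at 12 hpf and 47 and 43.5 at 24 hpf, over local backgrounds from 27 to 33.5. In Cy5 it was 77 and 78, then 63 and 70.5, over 48 to 52. The 12 hpf ratio was −0.24 and −0.17, a mean of −0.20 ± 0.05 (adjusted p = 0.0452), the 1 probe of the set called lower at that age. The call was lost on leaving out any 1 of the 4 arrays (adjusted p from 0.0564 to 0.298). The value itself depended on the background: it was −0.34 with a smaller normexp offset, −0.65 with plain subtraction and −0.62 with the scanner software's signals. At 24 hpf the probe was not well above background in either channel (0 of 2 arrays), so no ratio at that age and no difference between ages is given for it. Its measured values at 24 hpf enter the medians and counts over all probes or genes of the set, the order of the 24 hpf ratios and the mean profile below. The paralogue apoa1a was brighter: its ratios were −0.05 and 0.04 at 12 hpf and −0.44 and −0.42 at 24 hpf, where it fell by 0.43 ± 0.02 (adjusted p = 0.00202; 0.09 with median centring).

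Placed in order of the 12 hpf ratio, the probes ran from fabp1b.1 probe 1 through fabp2, rbp4, fabp1b.1 probe 2, apoeb probe 1, apoa2, apoeb probe 2 and apobb.1 to apoeb probe 3. Neighbours in this order differed by at most 1.92 SE of their gap, except at the last step, from apoeb probe 3 to apoa1b, at 2.95 SE. At 24 hpf fabp1b.1 probe 1 was again highest and apoeb probe 3 lowest, and no neighbouring pair there, apoa1b included, differed by more than 1.63 SE. The SE of a gap treats the probes as independent although they share arrays, so these values do not settle which neighbours differ.

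At 24 hpf 1 of the 10 probes was called higher, fabp1b.1 probe 1, and 2 were called lower, both of apoeb. The other 7 were not called. Among all probes 10.2% were called higher and 10.9% lower, so the members' count of 3 in 10 at this age stood near that of the array. The median of the 10 probes was −0.05, beside 0.00 over all probes.

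The ratio was lower at 24 than at 12 hpf for each of the 9 bright probes. The test of the difference itself called 5 of the 10 probes lower and 0 higher. Among all probes 5.35% were called lower and 3.1% higher. The fall was 0.55 for fabp2 (SE 0.10, adjusted p = 0.0120), 0.46 for apoeb probe 2 (SE 0.09, adjusted p = 0.0182) and 0.46 for fabp1b.1 probe 2 (SE 0.09, adjusted p = 0.0191). It was 0.41 for apoeb probe 1 (SE 0.10, adjusted p = 0.0326) and 0.42 for fabp1b.1 probe 1 (SE 0.11, adjusted p = 0.0453). The 5 called probes belonged to 3 genes, the fatty acid binding protein genes fabp1b.1 and fabp2 and the apolipoprotein gene apoeb. The 4 bright probes not called had differences of −0.27 for apoa2 (adjusted p = 0.117), −0.37 for rbp4 (adjusted p = 0.0773), −0.37 for apoeb probe 3 (adjusted p = 0.0536) and −0.41 for apobb.1 (adjusted p = 0.0708).

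The median difference of the 10 probes was −0.41, beside −0.01 over all probes. For all 9 bright probes both 24 hpf ratios lay below both 12 hpf ratios. Among all probes 28.8% showed this order. The count of 5 rested in part on single arrays, since 1 probe was called without 12 hpf replicate 1 and 2 were called without 24 hpf replicate 1. Without 12 hpf replicate 2 it was 7, and without 24 hpf replicate 2 it was 4. The sign of the mean difference stayed below 0 for the 9 bright probes under every alternative fit, all of which normalize the ratios within an array. It did not in the ratios before dye correction described below. With median centring 0 of the 10 differences had an unadjusted limma p under 0.05. The medians of the 24 hpf arrays lay far apart (1.06 and 0.56), so the sign under median centring is not shown to hold on each array. The call did not hold with a smaller normexp offset (0 called), plain subtraction (0), the scanner software's signals (0) or median centring (0).

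The wild-type level of 5 of the 7 genes was called higher at 24 than at 12 hpf, from 1.68-fold for fabp1b.1 probe 1 to 20.0-fold for rbp4. Wild-type Cy3 levels, normalized between arrays and tested in limma with 2 arrays per age, were called higher at 24 hpf for 6 of the 10 probes, lower for 1 and not called for 3. The lower one, apoa1b, passed the filter only through 12 hpf, where it is brighter, so that its call is no independent evidence of a fall. Among all probes 29.3% were called higher and 39.5% lower, so change with age was common on the array. The members' median difference was 0.90, beside −0.09 over all probes. These Cy3 values are the same ones that form the denominator of the ratios above.

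The largest rise was that of rbp4. Its wild-type log2 level was 10.34 and 10.49 at 12 hpf and 14.98 and 14.49 at 24 hpf. The rise of 4.32 (SE 0.16) was a 20.0-fold higher level (adjusted p = 3.25e-06). In the morphant Cy5 channel, where the ages were not tested against each other, the mean log2 level went from 11.01 to 14.96, a difference of 3.95.

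The particle proteins apoa2 and apobb.1 followed. The apoa2 log2 level was 12.50 and 12.76 at 12 hpf and 14.83 and 14.87 at 24 hpf, a rise of 2.22 (SE 0.10, 4.65-fold, adjusted p = 7.79e-06). The apobb.1 level was 12.49 and 12.95, then 14.90 and 14.68, a rise of 2.07 (SE 0.16, 4.19-fold, adjusted p = 6.84e-05). In neither gene did the ages overlap. The morphant means differed between the ages by 1.95 and 1.66 for the same probes.

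The intracellular fatty acid binding proteins rose by less. The fabp2 level was 14.32 and 14.48 at 12 hpf and 15.43 and 15.47 at 24 hpf, a rise of 1.05 (2.08-fold, adjusted p = 8.98e-05), while its morphant mean was 0.51 higher at 24 hpf. Probe 1 of fabp1b.1 went from 14.36 and 14.62 to 15.27 and 15.21, a rise of 0.75 (1.68-fold, adjusted p = 0.000914), and probe 2 from 13.01 and 13.24 to 14.37 and 14.39, a rise of 1.25 (2.38-fold, adjusted p = 7.14e-05). In the morphant the means of the same probes were 0.33 and 0.80 higher at 24 hpf.

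For apoeb no difference between the ages was called in the wild type, the levels being already high at 12 hpf. Probe 1 was at 16.04 and 16.17 at 12 hpf and 15.97 and 15.80 at 24 hpf, a difference of −0.22 (SE 0.09, adjusted p = 0.0780). Probes 2 and 3 differed by 0.07 (adjusted p = 0.467) and −0.00 (adjusted p = 0.996). In the morphant Cy5 channel the means of the 3 probes differed between the ages by −0.63, −0.39 and −0.37. For apoa1b, which was not well above background at 24 hpf, the mean log2 wild-type level was 6.75 at 12 hpf and 6.28 at 24 hpf. The measured difference, 1.39-fold lower, is given as a description since the probe was kept through its 12 hpf signal.

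In order of the wild-type rise, rbp4 stood 10.8 SE of the gap above apoa2. The gene apoa2 stood 0.77 SE above apobb.1, which stood 4.27 SE above fabp1b.1 probe 2. That probe lay 1.51 SE above fabp2, and fabp1b.1 probe 1 lay 5.09 SE above the nearest apoeb probe. The SE of a gap treats the probes as independent although they share arrays, so a small gap does not show that 2 rises were equal.

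**Figure D2:**
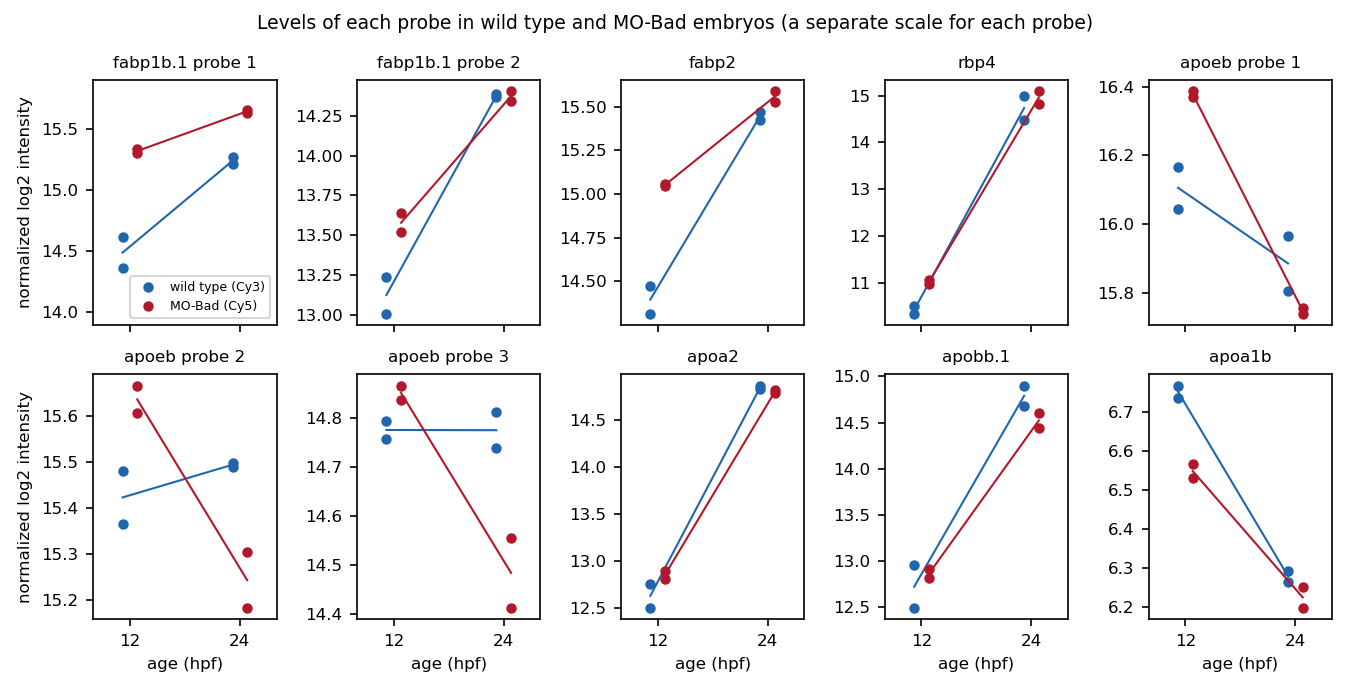
Normalized log2 intensity (vertical axis, scaled separately for each probe) at 12 and 24 hpf (horizontal axis) in wild type (Cy3, blue) and morphant (Cy5, red); points are arrays and lines join the means of an age. Of the panels, rbp4 shows the steepest wild-type rise (4.32), the 3 apoeb panels show a wild-type level that changed by −0.22 to 0.07 and a mean morphant level that was lower at 24 hpf, and apoa1b lies near background.

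The treatment of the dye trend moved the ratios of the bright members. Bright spots were stronger in Cy5 on all arrays, and the loess curve removed between 0.58 and 1.65 from the log2 ratio at the 9 bright probes. Before that step the background-subtracted ratio of fabp1b.1 probe 1 was 2.22, 1.58, 1.85 and 2.05 on the 4 arrays. In those uncorrected ratios the ages overlapped for 8 of the 9 bright probes, and for the other one, apoa2, both 24 hpf values (1.41 and 1.46) lay above both 12 hpf values (1.40 and 0.85). The uncorrected 24 hpf mean was above the 12 hpf mean for 7 of the 9 probes and below it for 2, with differences from −0.05 to 0.31 and a median of 0.03, beside a median of 0.30 over all kept probes. After loess, and equally in the scanner software's own dye-corrected ratios, both 24 hpf values lay below both 12 hpf values for 9 of 9.

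With each array centred on its median and no curve, the ratios of the 9 bright probes were above 0 at both ages, and the medians of the 10 probes were 0.95 at 12 hpf and 0.62 at 24 hpf. The median over all kept probes was then 0.18 and 0.15, and the members stood above it by more than under loess. Median centring keeps the Cy5 trend of bright spots that loess removed. Dye and sample cannot be told apart in that trend, so the wider gap cannot be read as a larger morphant excess. The split of all calls at 12 hpf changed with this scaling, from 3454 higher and 2649 lower to 334 higher and 13 lower. Under it the members' difference between ages had a median of −0.37, beside −0.04 over all probes. The deposited ratios kept fabp1b.1 probe 1 highest at 12 hpf but placed rbp4 (mean 0.66) above fabp2 (0.60), and apoa2 (0.28) and apobb.1 (0.24) above apoeb probes 1 and 2 (0.16 and 0.07). In them fabp1b.1 probe 1 was at 0.95, 0.66, 0.29 and 0.41, and fabp2 at 0.70, 0.50, 0.03 and −0.04.

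Of the 12 hpf calls, those of fabp1b.1 probe 1 and of fabp2 held in every alternative run (adjusted p at most 0.0448 for both). The calls of rbp4 and of fabp1b.1 probe 2 were lost only with median centring (adjusted p = 0.0813 and 0.0571) and with plain subtraction of the background (adjusted p = 0.0584 and 0.0573). Those of apoa2, apoeb probes 1 and 2 and apoa1b were lost under several alternatives. With signals as processed by the scanner, for example, adjusted p was 0.0915 for apoa2, 0.285 and 0.563 for apoeb and 0.103 for apoa1b.

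**Figure D3:**
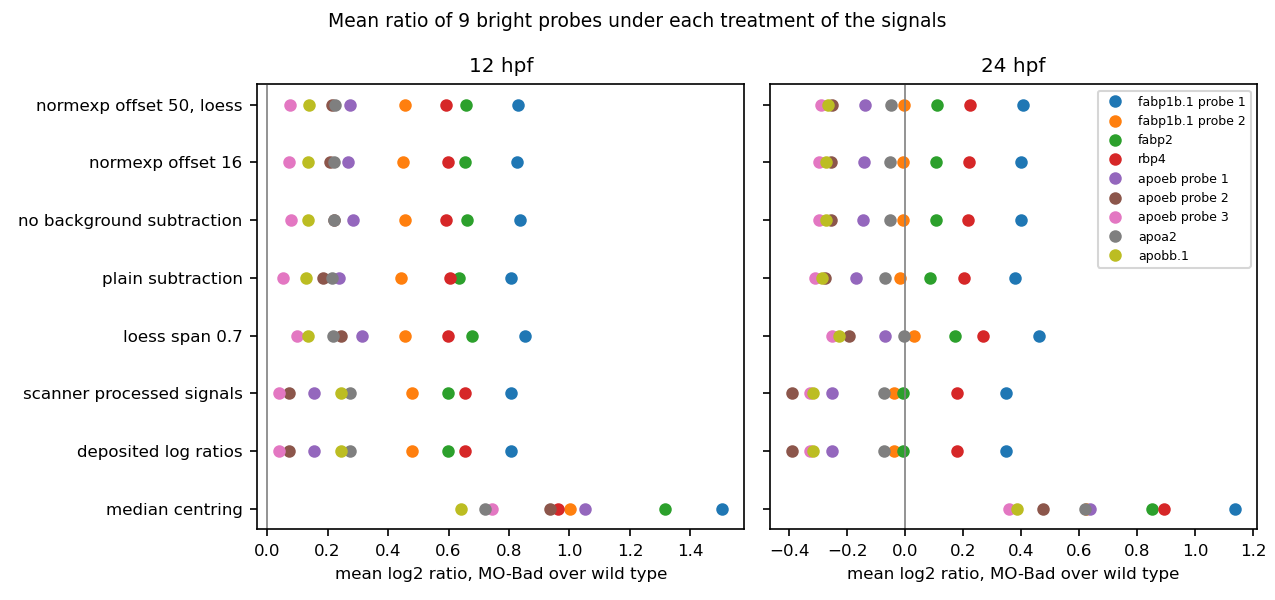
Mean log2 ratio of morphant over wild type (horizontal axis) of the 9 bright probes under each treatment of the signals (vertical axis), at 12 hpf on the left and 24 hpf on the right. Probe 1 of fabp1b.1 has the highest 12 hpf ratio in every row while the order of other genes varies, and the median-centred row lies to the right of the others at both ages, with all 9 probes above 0.

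Genes of the same pathways were described from 5 lists, each gene by its brightest probe. Among the 10206 genes so represented, 12.4% were called higher and 10.9% lower at 12 hpf, 12.1% higher and 14.1% lower at 24 hpf. The difference between ages was called higher for 3.99% and lower for 6.84%. For the wild-type level 34.6% were called higher and 40.2% lower at 24 hpf. Of the calls given below for named genes at 12 or 24 hpf, that of dgat1b at 12 hpf held under every alternative run, and all the others missed the threshold with median centring. At 24 hpf no gene of the 5 lists was called with plain subtraction, the scanner software's signals or the deposited ratios either. At 12 hpf plain subtraction also lost calls, among them those of apoa4b.1, ambp and igfbp1a (adjusted p = 0.0645, 0.0682 and 0.0578). The positive ratios were nonetheless larger under median centring, which leaves the Cy5 trend of bright spots in place. At 12 hpf they reached 1.15 for apoa4b.1, 0.59 for creb3l3a, 0.87 for dbi, 0.75 for fabp3 and 0.85 for cebpb, and at 24 hpf 1.04 for fabp3, 1.03 for fabp4a, 0.80 for crabp1b, 0.42 for scarb2a and 1.22 for fgb. Ratios below 0 moved toward 0 or past it, to −0.10 for scp2b and −0.43 for igfbp1a at 12 hpf, and at 24 hpf to −0.17 for pltp, −0.46 for apoea, −0.33 for scarb1 and −0.23 for gata5. The counts between ages below, in ratio and in wild-type level, include genes that passed the filter through only 1 age.

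Of genes for lipoprotein assembly and apolipoproteins, 18 of 33 listed were measured. At 12 hpf 4 were called higher and 1 lower, with a median ratio of 0.08. The diacylglycerol acyltransferase gene dgat1b, which makes triglyceride, was higher by 0.91 ± 0.04 (adjusted p = 6.17e-05), and apoa4b.1, an apolipoprotein A-IV gene, by 0.56 ± 0.21 (adjusted p = 0.00156). The gene creb3l3a, a transcriptional activator of apolipoprotein genes, was higher by 0.24 ± 0.13 (adjusted p = 0.0471), and by 0.15 without 12 hpf replicate 1 (adjusted p = 0.412). At 24 hpf 2 were called higher and 4 lower, with a median of 0.00. The apolipoprotein E paralogue apoea fell by 0.81 ± 0.10 (adjusted p = 0.000154), and pltp, the phospholipid transfer protein gene, fell by 0.44 ± 0.03 (adjusted p = 0.00163). The probe of apoea was not well above background at 12 hpf in either channel. The difference between ages was called lower for 4, apoea among them, and higher for 0, with a median of −0.19, and in the wild type 10 were called higher and 6 lower.

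Of the intracellular lipid and retinoid binding proteins, 15 of 27 were measured. At 12 hpf 4 were called higher and 1 lower, with a median of 0.10. The heart-type fatty acid binding protein gene fabp3 was higher by 0.35 ± 0.06 (adjusted p = 0.00534) and dbi, encoding an acyl-CoA binding protein, by 0.31 ± 0.17 (adjusted p = 0.0199). On leaving out 12 hpf replicate 2 fabp3 missed the threshold (adjusted p = 0.0517), and dbi was at 0.19 without 12 hpf replicate 1 (adjusted p = 0.276). The sterol carrier gene scp2b was called lower, with ratios of −0.74 and −0.08 that lay far apart (adjusted p = 0.0437; 0.680 without replicate 1). At 24 hpf 3 were called higher and 1 lower, with a median of 0.07. The adipocyte-type gene fabp4a was higher by 0.60 ± 0.02 (adjusted p = 0.000467), crabp1b, for a cellular retinoic acid binding protein, by 0.47 ± 0.02 (adjusted p = 0.00133), and fabp3 by 0.24 ± 0.04 (adjusted p = 0.0250; 0.202 and 0.116 without 24 hpf replicate 1 or 2). Between the ages 0 ratios were called lower and 1 higher, that of crabp1b, whose probe was not well above background at 12 hpf in either channel and whose difference turned to −0.06 with plain subtraction and −0.34 with the scanner software's signals. The list's median difference was −0.05. In the wild type 12 were called higher and 2 lower.

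Of the uptake receptors and transporters, 11 of 32 were measured, and at 12 hpf 3 were called lower and 0 higher, with a median of −0.10. The very low density lipoprotein receptor gene vldlr fell by 0.98 ± 0.21 (adjusted p = 0.000121), the high density lipoprotein receptor gene scarb1 fell by 0.49 ± 0.01 (adjusted p = 0.000812), and stra6, the receptor that takes up retinol from Rbp4, fell by 0.32 ± 0.17 (adjusted p = 0.0144). With median centring they were at −0.85, −0.11 and −0.04 and did not pass (adjusted p = 0.0731, 0.814 and 0.938). The vldlr ratio was −1.68 with plain subtraction and −2.01 with the scanner software's signals, and stra6 was at −0.20 without 12 hpf replicate 1 (adjusted p = 0.231). At 24 hpf 1 was called higher and 2 lower, with a median of −0.04. The gene scarb1 fell by 0.60 ± 0.04 (adjusted p = 0.000419) and the fatty acid transporter gene slc27a2a fell by 0.24 ± 0.08 (adjusted p = 0.0278; 0.50 with median centring), and the lysosomal receptor gene scarb2a was higher by 0.24 ± 0.14 (adjusted p = 0.0380). Both slc27a2a (adjusted p = 0.275 and 0.0816) and scarb2a (0.34, adjusted p = 0.0549, and 0.14, adjusted p = 0.431) missed the threshold without 24 hpf replicate 1 or 2. The ratio of vldlr was higher by 0.94 at 24 than at 12 hpf (adjusted p = 0.00235), the 1 called difference of the list. In the wild type 3 were called higher and 5 lower.

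Of the plasma proteins of liver and yolk cell, 18 of 41 were measured. At 12 hpf 6 were called higher and 3 lower, with a median of 0.10. The gene ambp, for the alpha-1-microglobulin and bikunin precursor, was higher by 0.63 ± 0.26 (adjusted p = 0.00251) and plg, for plasminogen, by 0.44 ± 0.07 (adjusted p = 0.00272), while igfbp1a, for an insulin-like growth factor binding protein, fell by 0.69 ± 0.30 (adjusted p = 0.00177). At 24 hpf 4 were called higher and 3 lower, with a median of −0.04. The fibrinogen chain gene fgb was higher by 0.77 ± 0.12 (adjusted p = 0.000547), agt, for angiotensinogen, fell by 0.53 ± 0.00 (adjusted p = 0.000825), and f2, for prothrombin, fell by 0.38 ± 0.08 (adjusted p = 0.00393; 0.03 with median centring, and adjusted p = 0.0650 without 24 hpf replicate 1). With the scanner software's signals plg was at 0.67 at 12 hpf (adjusted p = 0.0377) and agt at −1.24 at 24 hpf, where it was not called (adjusted p = 0.0553). Between the ages 1 ratio was called higher and 3 lower, and in the wild type 15 were called higher and 2 lower.

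Of the regulators of the yolk syncytial layer and of yolk proteolysis, 24 of 30 were measured. At 12 hpf 3 were called higher and 2 lower, with a median of 0.07. The yolk syncytial homeobox gene mxtx2 was higher by 0.40 ± 0.00 (adjusted p = 0.00401), cebpb, a transcription factor gene, by 0.31 ± 0.01 (adjusted p = 0.00735), and the sulfate transporter gene slc26a1 fell by 0.36 ± 0.16 (adjusted p = 0.00863; 0.09 with median centring). The mxtx2 ratio was 1.09 with the scanner software's signals, and the calls of cebpb and slc26a1 were lost without 12 hpf replicate 1 (adjusted p = 0.0658) and 2 (adjusted p = 0.111) respectively. At 24 hpf 1 was called higher and 7 lower, with a median of −0.11. The endodermal transcription factor gene gata5 fell by 0.61 ± 0.15 (adjusted p = 0.000647), the homeobox gene mxtx1 fell by 0.60 ± 0.12 (adjusted p = 0.000930) and the cathepsin B gene ctsba fell by 0.57 ± 0.26 (adjusted p = 0.0192; 0.12 with median centring, and −0.39, adjusted p = 0.196, without 24 hpf replicate 1). For the difference between ages 7 were called lower and 1 higher, with a median of −0.22. In the wild type 6 were called higher and 17 lower.

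**Figure D4:**
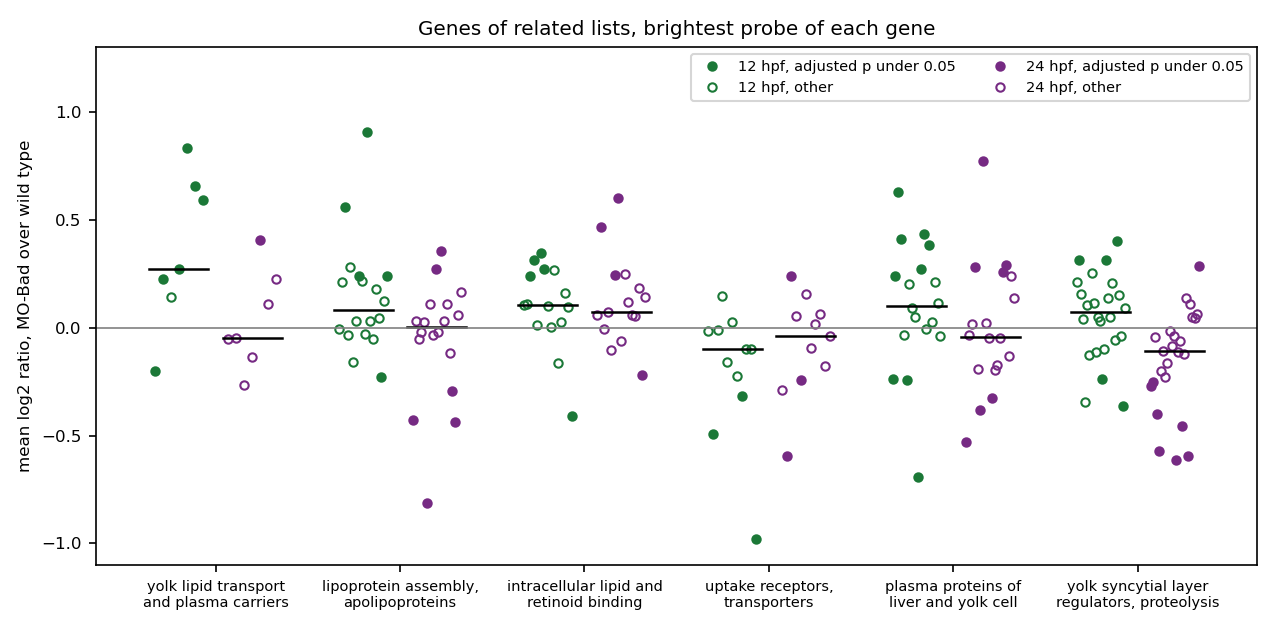
Mean log2 ratio of morphant over wild type (vertical axis) of each measured gene by its brightest probe, for the lipid transport and carrier genes and the 5 related lists (horizontal axis), at 12 hpf (green) and 24 hpf (purple); filled points have adjusted p under 0.05 and black bars are medians. The 12 hpf median of the 7 genes is 0.27, against −0.10 to 0.10 for the other lists, and at 24 hpf all medians, that of the 7 genes with the dim apoa1b included, lie between −0.11 and 0.07.

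Markers of other tissues were called about as often as genes in general, apart from lower ratios at 24 hpf, which were more frequent. At 12 hpf 5 of the 38 measured markers had a called higher ratio and 3 a called lower one, and at 24 hpf 5 and 19 did. The corresponding shares of the 10206 genes, each by its brightest probe, were 12.4% and 10.9%, then 12.1% and 14.1%. The summed normalized intensity of the 6 endoderm, liver and gut markers was 9172 to 9643 in wild type and 8809 to 8998 in morphant at 12 hpf, and 7850 to 8389 against 6195 to 6797 at 24 hpf. Of these 6 markers 0 were called higher at either age, 1 was lower at 12 hpf and 3 at 24 hpf; ins was not well above background in wild type at 12 hpf, nor sox17 at 24 hpf. The 5 hatching gland markers summed to 42149 to 43665 in wild type and 37830 to 38703 in morphant at 12 hpf, and to 105854 to 106003 against 79074 to 79399 at 24 hpf, where all 5 were called lower. The 6 erythroid markers summed to 3408 to 3684 in wild type and 3295 to 3644 in morphant at 12 hpf, and to 197659 to 198381 against 287377 to 289568 at 24 hpf, where the globin genes hbae1.1, hbae3 and hbbe3 were called higher and tal1, alas2 and gata1a were not called. At 12 hpf 1 of the 6 was called higher, tal1, and 1 lower, hbae3. The part of these tissues in the ratios of the carrier genes was not tested.

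The genes whose profile over the 8 channel values (2 dyes on 4 arrays) was most like the mean profile of the 7 carrier genes were grtp1b (Pearson r = 0.999), hbl4 (r = 0.998), mat1a (r = 0.997), apoa4b.1 (r = 0.997) and gpd1c (r = 0.997). The 8 values share arrays, and 1703 of 9616 candidate genes had r over 0.95. All 5 had positive 12 hpf ratios, from 0.30 for grtp1b to 1.05 for mat1a, and 24 hpf ratios between −0.05 and 0.08. They were picked on the same channel values that form these ratios, so this likeness is no independent result. The mean profile includes the dim values of apoa1b at 24 hpf, and the same 5 genes were nearest without that gene, a comparison added after seeing the data. Against the mean profile of the other bright genes of the set, r was 0.981 for apoa2, 0.974 for rbp4, 0.967 for apobb.1, 0.931 for fabp2, 0.732 for fabp1b.1 and −0.774 for apoeb. In the GRCz12tu annotation apoeb and apoa2 lie near each other, with apoc1 and apoc4 between them, and in the wild type apoa2 rose 4.65-fold while no apoeb probe was called.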

How the data were processed

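Whole-embryo RNA of 4 morphant and 4 wild-type pools was measured on 4 Agilent arrays of 2 colours. Per the file headers, spot and local background values are unnormalized fluorescence intensity, and the software was Agilent Feature Extraction 10.5.1.1 per the submitters' processing notes. A table of log10 ratios of Cy5 over Cy3 deposited by the authors was equal to the scanner software's log ratio (largest difference 0), and the scanner files deposited by the authors also hold a p-value of each ratio, used for no call.

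Background was corrected with normexp (offset 50), and log2 ratios were normalized by loess in each array (limma 3.58.1, R 4.3.3), with 1417 control spots and outlier spots at weight 0. Spots were averaged to 43603 probes, and 16770 of 19210 probes with a RefSeq accession got a symbol. Probes were kept (28320) where, at some age, both arrays showed them well above background in Cy3 or Cy5. limma fitted a mean per age over 4 arrays (2 residual and 7.50 prior degrees of freedom), two-sided. Wild-type levels were Cy3 after loess and Aquantile normalization. The brightest probe stood for a gene. The limma fits were tested on simulated ratios and levels, and the background correction and removal of the dye trend were not part of that test. The simulated noise was independent between probes and drawn from limma's own prior, so the test does not show how reliable the calls here are. All arrays shared 1 slide and 1 scan, so no batch was fitted.

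The members and lists were chosen with earlier results of these data known. All member probes were named, and from each pathway list up to 3 genes per age with the largest ratio among those called and alike in sign on both arrays; fabp3 and scarb1 were named at both ages. Genes most alike were the 5 with the highest Pearson r. Alternatives changed the background correction, normalization, filter, source of ratios, variance model, arrays and pairing. The array was annotated on an earlier assembly than GRCz12tu, so positions are not given.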

Additional observations from a re-analysis of the deposited data

Results flagged for a closer look

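For the probes and genes below, the ratio of morphant over wild type differed between the ages by limma's test of the difference itself. The difference of the log2 ratio, 24 minus 12 hpf, was −0.42 for fabp1b.1 probe 1, −0.46 for probe 2 and −0.55 for fabp2. It was −0.41 for apoeb probe 1 and −0.46 for apoeb probe 2. All 5 rest on 2 arrays per age, and none was called with a normexp offset of 16, plain subtraction, median centring or the scanner software's ratios. In the ratios before dye correction the differences were 0.05 and 0.03 for fabp1b.1 probes 1 and 2 and −0.05 for fabp2. They were 0.00 and −0.04 for apoeb probes 1 and 2.

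Among the genes named from the related lists, the difference was −0.61 for apoa4b.1, −0.42 for apoa1a and −0.55 for dgat1b. It was −0.61 for both ambp and plg, −0.57 for cebpb and −0.54 for mxtx1. It was above 0 for vldlr (0.94), fgb (0.57) and slc26a1 (0.42). None of these 10 differences passed with plain subtraction, median centring or the scanner software's ratios. With a normexp offset of 16 the threshold was also missed for apoa4b.1, apoa1a and ambp (adjusted p = 0.0552, 0.0782 and 0.0817) and for fgb, slc26a1 and mxtx1 (0.130, 0.101 and 0.0549). With no background subtraction it was missed for fgb (0.0664) and slc26a1 (0.0600). With 1 array left out, the threshold was missed for apoa1a without 12 hpf replicate 2 or either 24 hpf array (adjusted p = 0.0664, 0.0848 and 0.0652) and for slc26a1 without the same arrays (0.132, 0.161 and 0.0588). It was missed for ambp without replicate 1 of either age (0.111 and 0.119), for mxtx1 without 12 hpf replicate 2 or 24 hpf replicate 1 (0.0523 and 0.0781) and for fgb without replicate 2 of either age (0.0697 and 0.0872). The directions within an age differed too: cebpb was higher in the morphant at 12 hpf (0.31) and lower at 24 hpf (−0.25, adjusted p = 0.0198; 0.15 with median centring), but the 24 hpf call was lost without either 24 hpf array (adjusted p = 0.175 and 0.102) and with the offset of 16 (0.0579).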

How the results depend on the processing

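For the wild-type difference between ages 7 probes were called, and 6 or 7 under each alternative run for it other than the crossed block; plain subtraction, median centring, the deposited ratios and the wider loess span were not run for these levels. With the replicate number as a block, 5 probes were called for the difference between ages and 7 for the wild type, the same counts as without it. Deviations of same-numbered samples from the mean of their age correlated at −0.04 (ratio) and −0.14 (wild-type level) over 2 pairs. With 2 arrays per age these deviations mirror each other, so the 2 pairs are not independent. The numbers are therefore not shown to pair samples. A crossed pairing of the wild-type levels, added after seeing the data, called 8.

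At 12 hpf 8 member probes were called. The count was 5 with a normexp offset of 16, 2 with plain subtraction, 2 with median centring, 4 with signals as processed by the scanner and 4 with the deposited ratios, and 4 to 7 with 1 array left out. At 24 hpf 3 were called, against 1 with the offset of 16 and 0 by limma with plain subtraction, median centring, the processed signals and the deposited ratios (3, 6, 4 and 4 at an unadjusted p under 0.05), and 1 to 5 with 1 array left out. For the difference between ages 5 were called, 3 with no background subtraction, and 0 by limma with the offset of 16, plain subtraction, median centring, the processed signals and the deposited ratios (9, 6, 0, 9 and 9 at an unadjusted p under 0.05), and 1 to 7 with 1 array left out. A wider loess span of 0.7, added after seeing the data, gave 6, 3 and 4.

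Calls over all probes moved likewise: 6103 at 12 hpf (1226 with plain subtraction, 347 with median centring, 2192 with processed signals, 2275 with deposited ratios, 2385 and 4059 without replicate 1 or 2 of that age), 5974 at 24 hpf (3874 with the offset of 16, then 0, 4, 15 and 100, and 2408 and 2619 without an array of that age) and 2394 for the difference (826 with the offset of 16, 0 in the next 4, and 1167 to 1356 without 12 hpf replicate 1 or a 24 hpf array). The 0 counts stood beside 865 to 7383 probes at an unadjusted p under 0.05.

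Median centring reversed apoeb probes 2 and 3 at 24 hpf (0.47 and 0.36). At 12 hpf it reversed pltp (0.13), f2 (0.098), gata5 (0.30) and slc26a1 (0.088), and at 24 hpf apoa1a (0.093), slc27a2a (0.50), f2 (0.032), ctsba (0.12) and cebpb (0.15). For the difference between ages, plain subtraction reversed apoea (1.74) and crabp1b (−0.061), and crabp1b was also reversed by the processed signals (−0.34) and the deposited ratios (−0.34); both probes were not well above background at 12 hpf in either channel. The cause was not tested in any of these cases. Signal over background limits apoa1b alone among the members.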
